A study of Mus musculus with 20 samples.

Results

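The CCN family of secreted matricellular proteins was followed through culture of mouse lung cells on flat plates and in collagen gel, and through sorted cells that had not been cultured. Its members were taken by gene symbol from the deposited count table, which uses the older names: Ctgf (now Ccn2), Cyr61 (Ccn1), Wisp1 (Ccn4), Wisp2 (Ccn5) and Nov (Ccn3). They are 5 of the 18012 genes with values, and all 5 passed the filter on low counts, with and without sorted cells in the fit. Ctgf and Cyr61 were 6.01-fold to 12.4-fold higher in cultures that ended on plates than in those that ended in gel. Wisp2 was 153-fold lower after 3D culture throughout than after 2D culture throughout. Wisp1 was 15.8-fold to 33.4-fold higher in culture than in uncultured, bead-depleted cells. Nov was at most 8.99 CPM (read counts scaled to a common library size) in any library.

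All animals were male C57BL/6 mice with normal lungs, and no chemical treatment was given; age is not stated in the labels. Lung tissue was digested with collagenase, and the digest, not sorted for any cell type, was cultured for 4 days on 2D plates (plastic below) or in 3D collagen hydrogel, then passaged onto the same or the other substrate for another 2 days. The names 2D-2D, 3D-2D, 2D-3D and 3D-3D give the first and then the second culture, and Sort_Fib denotes uncultured digest passed over magnetic particles against CD45, EpCam and CD31, called sorted cells below. There were 4 RNA-seq libraries in each of the 5 groups. The design asks how much of the state set by the first substrate is still seen after the second.

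CCN proteins are built of modules shared with insulin-like growth factor binding proteins, von Willebrand factor and thrombospondin, and most end in a cystine knot. They bind integrins, heparan sulphate proteoglycans and growth factors and so act on adhesion and growth factor signalling. Ctgf and Cyr61 are standard target genes of the mechanosensitive coactivators YAP and TAZ, which act through TEAD factors, and Ctgf is in addition induced by TGF-beta and is a well-known marker of fibrosis. Wisp1 was named as a gene induced by Wnt signalling, Wisp2 is a member that lacks the cystine knot and is described as opposing Ctgf, and Nov was found as a gene overexpressed in nephroblastoma and binds Notch1.

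In the annotation of the same build (GRCm38, GENCODE M21) the main transcript of each member has 5 exons. Ctgf lies on chromosome 10 (24595442 to 24598683, plus strand), Cyr61 on chromosome 3 (145646976 to 145649981, minus strand) and Wisp2 on chromosome 2 (163820861 to 163833146, plus strand). Nov (54745702 to 54754039) and Wisp1 (66891320 to 66923201) share chromosome 15, both on the plus strand. Wisp2 has the shortest coding sequence, with 251 codons against 348 in Ctgf, 354 in Nov, 367 in Wisp1 and 379 in Cyr61.

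The RefSeq table of promoters (GRCm38.p6) held a window for 1 of the 5 members, Cyr61, from 250 bases before to 50 bases after the transcription start. It is shown because no other member had a window. The whole window spans chr3:145649936-145650235 and is printed along the gene's own strand, the minus strand. Capitals mark the match to the TEAD motif GGAATG, at positions -103 to -98 from the start. The motif reads on the strand opposite to the gene.
Cyr61: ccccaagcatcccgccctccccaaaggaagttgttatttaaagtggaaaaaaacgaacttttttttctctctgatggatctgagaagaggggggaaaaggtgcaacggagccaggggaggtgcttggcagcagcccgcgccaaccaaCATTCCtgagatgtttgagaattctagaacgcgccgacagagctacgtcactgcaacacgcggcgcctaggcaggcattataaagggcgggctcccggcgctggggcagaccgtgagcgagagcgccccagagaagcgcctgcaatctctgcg
On both strands, the same window held the SMAD motif CAGAC at positions 4 to 8 and no match to the AP-1 motif TGANTCA, the TCF/LEF motif CTTTGAT or the CArG box. Of all 32851 promoter windows of this length, 14.7% held the TEAD motif, 49.6% the SMAD motif, 7.8% the AP-1 motif, 3.7% the TCF/LEF motif and 1.6% the CArG box. A match is a run of letters and not a measured binding site.

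Depth was 19.67 to 20.33 M counts in cultured libraries and 11.66 to 13.95 M in sorted ones. Replicate 3 of 3D-3D stood apart: set against its own group, it gave chi-square values of 32.62 to 39.31 per degree of freedom, and no other replicate pair exceeded 25.58. Levels below are CPM on effective library sizes (TMM scaling) with SD over n = 4 libraries, and changes are log2 fold changes ± SE from edgeR's quasi-likelihood test, called at an adjusted p (Benjamini-Hochberg over all genes tested) below 0.05. The labels do not state whether each replicate is its own animal, and the spread behind every p-value may be technical. In whole cultures a change in RNA per cell and a change in the mix of cells cannot be told apart.

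**Figure D1:**
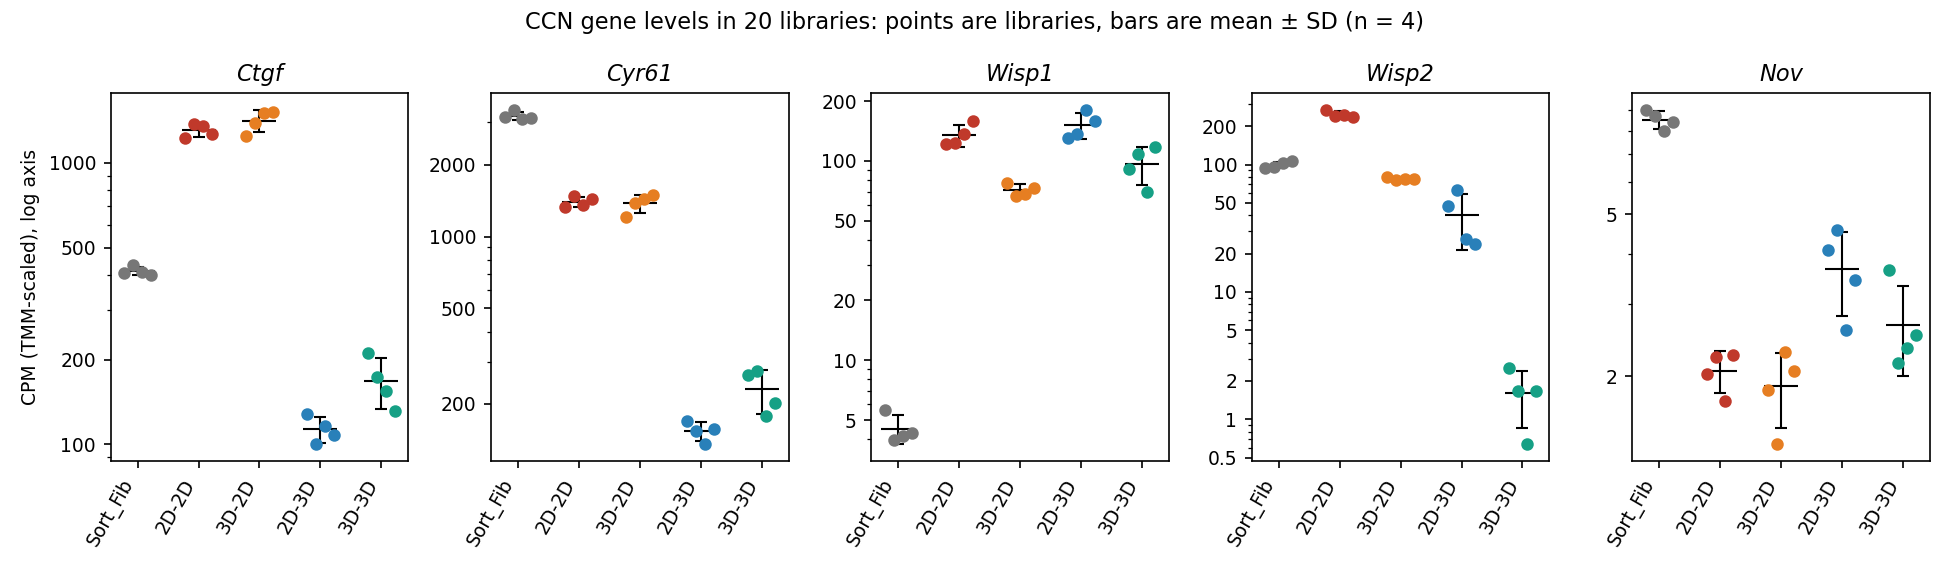
Level of each CCN gene (CPM, log axis with its own range in each panel) in the 20 libraries; points are libraries and black bars the mean ± SD of 4. Ctgf and Cyr61 form a high pair on second 2D and a low pair on second 3D, whereas Wisp2 is lowest in 3D-3D at 1.62 CPM.

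Ctgf, the connective tissue growth factor, was highest in the groups that ended on 2D. Its level was 1227.3, 1372.8, 1356.3 and 1267.5 CPM in the 4 libraries of 2D-2D and 1243.4, 1383.1, 1507.0 and 1510.4 CPM in those of 3D-2D. In gel it stood at 127.8, 100, 116.5 and 107.6 CPM in 2D-3D and at 212.0, 174.0, 154.2 and 131.8 CPM in 3D-3D. Every library that ended on 2D thus lay above every library that ended in 3D, and the 2 gel groups did not overlap each other either. Sorted cells lay between plastic and gel, at 407.2, 431.9, 410.2 and 400.1 CPM.

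The change of Ctgf in gel was -2.97 ± 0.12 on the log2 scale for 3D-3D against 2D-2D (7.83-fold, adjusted p = 1.74e-14) and -3.53 ± 0.12 for 2D-3D against 2D-2D (11.6-fold, adjusted p = 4.39e-15). In 3D-2D against 3D-3D it was higher by 3.07 ± 0.12 (adjusted p = 2.14e-14). On plastic, the first substrate gave no called difference: 3D-2D less 2D-2D was 0.10 ± 0.11 (95% interval -0.13 to 0.33, adjusted p = 0.583). In gel the first substrate gave a called difference, with Ctgf lower in 2D-3D than in 3D-3D (-0.56 ± 0.11, adjusted p = 0.000683).

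Cyr61, the cysteine-rich angiogenic inducer, ran close to Ctgf in the cultures and apart from it in sorted cells. It stood at 1326.2, 1475.2, 1348.9 and 1438.8 CPM in 2D-2D and at 1211.0, 1381.7, 1433.5 and 1488.2 CPM in 3D-2D, with overlapping ranges. In gel it was 169.2, 153.9, 135.0 and 156.2 CPM in 2D-3D and 264.6, 274.5, 177.7 and 200.4 CPM in 3D-3D. These gel groups did not overlap, and all 8 gel libraries lay below all 8 plastic ones. Sorted cells held the most Cyr61, at 3163.7, 3375.7, 3097.7 and 3132.8 CPM.

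The change of Cyr61 was -2.62 ± 0.12 in 3D-3D against 2D-2D (6.13-fold, adjusted p = 1.17e-13) and -3.19 ± 0.12 in 2D-3D against 2D-2D (9.1-fold, adjusted p = 1.38e-14), and 2.59 ± 0.12 in 3D-2D against 3D-3D (adjusted p = 2.4e-13). The first substrate was not called on plastic (-0.03 ± 0.11, 95% interval -0.27 to 0.2, adjusted p = 0.887) and was called in gel, with 2D-3D lower than 3D-3D (-0.57 ± 0.11, adjusted p = 0.000656). Cyr61 counts per Ctgf count, a ratio that no scaling changes, ran from 0.951 to 1.14 in the plastic libraries, from 1.15 to 1.58 in the gel libraries and from 7.55 to 7.83 in sorted cells. These 3 ranges did not overlap, and no test was made on the ratio.

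Wisp2, the member without the cystine knot, had the widest span of the family. Its level was 267.2, 242.4, 245.8 and 236.7 CPM in 2D-2D and 80.1, 75.0, 76.8 and 77.7 CPM in 3D-2D. In gel it was 47.4, 63.7, 26.1 and 24.0 CPM in 2D-3D and 2.52, 1.67, 0.635 and 1.66 CPM in 3D-3D, where the libraries held 13 to 54 counts. The libraries of the 4 cultures did not overlap, and replicates 1 and 2 of 2D-3D were above replicates 3 and 4. Sorted cells stood at 94.8, 95.5, 102.3 and 105.9 CPM, below 2D-2D and above the other cultures.

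Wisp2 differed by both the first and the second culture. It was lower in 3D-3D than in 2D-2D by -7.26 ± 0.31 (153-fold, adjusted p = 3.8e-14), lower in 2D-3D than in 2D-2D by -2.62 ± 0.23 (6.15-fold, adjusted p = 1.93e-09) and higher in 3D-2D than in 3D-3D by 5.57 ± 0.30 (47.5-fold, adjusted p = 2.83e-12). At the same second substrate, the 3D start was the lower: the change was -1.69 ± 0.22 for 3D-2D against 2D-2D (adjusted p = 6.75e-06), and 2D-3D exceeded 3D-3D by 4.64 ± 0.30 (24.9-fold, adjusted p = 3.91e-10). After the move to plastic Wisp2 was thus below its 2D-2D level, and after the move to gel above its 3D-3D level. Of the mixed histories, 2D-3D was the lower (-0.93 ± 0.22 against 3D-2D, adjusted p = 0.000823). These tests share an estimate of spread over the cultures, although the spread of Wisp2 was unequal. Its SD was 46.7% of the mean in 2D-3D and 47.6% in 3D-3D, against 5.37% in 2D-2D and 2.73% in 3D-2D. The SE may thus be too small in gel and too large on plastic.

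Wisp1 differed less among the cultures, and was higher after a 2D start on either second substrate. Its level was 121.7, 122.7, 136.5 and 158.6 CPM in 2D-2D and 130.3, 136.2, 179.9 and 157.9 CPM in 2D-3D, the groups with a 2D start, which overlapped. With a 3D start it was 77.3, 67.0, 68.1 and 73.4 CPM in 3D-2D and 90.9, 108.6, 69.9 and 117.7 CPM in 3D-3D, also overlapping through replicate 3 of 3D-3D. On these TMM-scaled levels all 8 libraries with a 2D start lay above all 8 with a 3D start, by a narrow margin (121.7 against 117.7 CPM). By library size alone they overlapped: replicate 1 of 2D-2D held 2098 counts in 19.91 M, and replicate 4 of 3D-3D held 2556 in 19.86 M. Sorted cells held only 5.64, 3.99, 4.17 and 4.29 CPM.

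Wisp1 was lower in 3D-2D than in 2D-2D (-0.93 ± 0.14, adjusted p = 3.34e-05) and higher in 2D-3D than in 3D-3D (0.65 ± 0.13, adjusted p = 0.00082). The mixed orders differed by 1.09 ± 0.14, with 2D-3D the higher (adjusted p = 5.38e-07). For the second substrate the differences were 0.16 ± 0.13 for 2D-3D against 2D-2D (95% interval -0.12 to 0.44, adjusted p = 0.28) and -0.44 ± 0.14 for 3D-2D against 3D-3D (adjusted p = 0.00707). The fall in 3D-3D against 2D-2D, -0.49 ± 0.13 (adjusted p = 0.00281), was lost when libraries were scaled by size alone (-0.16 ± 0.15, adjusted p = 0.311), and 2D-3D against 2D-2D was then called at 0.44 (adjusted p = 0.0102).

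Nov, also a secreted CCN protein, was scarce, with 25 to 98 counts in each cultured library. It stood at 2.03, 2.23, 1.74 and 2.26 CPM in 2D-2D, at 1.85, 1.36, 2.29 and 2.06 CPM in 3D-2D, at 4.09, 4.57, 2.59 and 3.44 CPM in 2D-3D and at 3.64, 2.16, 2.34 and 2.53 CPM in 3D-3D. The libraries of 2D-3D lay above all those of 2D-2D and 3D-2D, and the other cultures overlapped. Nov rose in 2D-3D against 2D-2D (0.83 ± 0.24, adjusted p = 0.00396) and against 3D-2D (0.97 ± 0.24, adjusted p = 0.00124). Its other differences between cultures were not called, among them 0.36 ± 0.24 for 3D-3D against 2D-2D (95% interval -0.14 to 0.86, adjusted p = 0.185), which became 0.68 and was called by library size alone (adjusted p = 0.0163). Sorted cells held 8.99, 8.70, 7.99 and 8.43 CPM, above every culture.

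**Figure D2:**
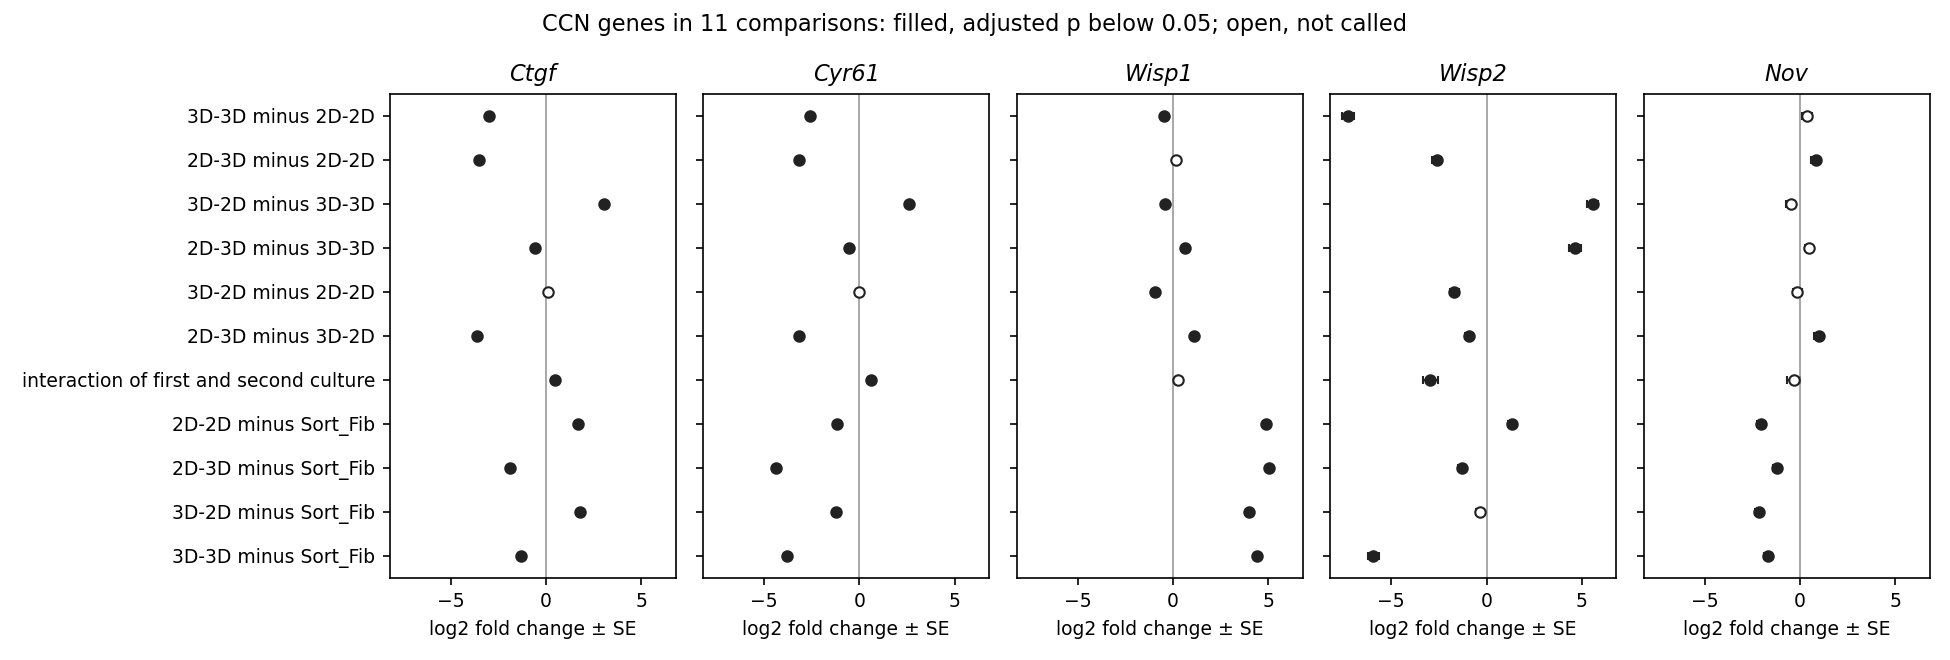
Log2 fold change ± SE of each CCN gene in the 11 comparisons (n = 4 libraries a group); filled points passed an adjusted p of 0.05 and open ones did not. Wisp2 reaches -7.26 in 3D-3D against 2D-2D, and Wisp1 is 3.98 to 5.06 above sorted cells in all 4 cultures.

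The members' counts are given beside the share of all genes called. Of the 5 members, 4 were called in 3D-3D against 2D-2D, all lower, where 73.5% of the 13704 genes tested were called (38.6% higher and 34.9% lower). In 2D-3D against 2D-2D 1 member was higher and 3 lower, beside 71.2% of genes (36.5% and 34.7%). In 3D-2D against 3D-3D 3 were higher and 1 lower, beside 70.5% (32.8% and 37.7%). Between the mixed orders, 2D-3D against 3D-2D, 2 were higher and 3 lower, beside 69.1% (36% and 33.2%). Where only the first substrate differed, 2 were higher and 2 lower in 2D-3D against 3D-3D, beside 27.7% of genes (12.7% and 15%). On plastic, 3D-2D against 2D-2D, none was higher and 2 were lower, beside 20.4% (9.74% and 10.6%). The median change of the members was -2.62 in 3D-3D against 2D-2D, beside 0.05 over all genes. These comparisons share groups and are not independent of each other. Scaled by library size alone, the share of called genes that were higher went from 52.5% to 70.9% in 3D-3D against 2D-2D, from 51.3% to 67.5% in 2D-3D against 2D-2D, from 46.5% to 31.2% in 3D-2D against 3D-3D, from 47.8% to 68.6% in 3D-2D against 2D-2D and from 52.1% to 64.4% between the mixed orders. The median of all genes moved with it by 0.32, 0.28, -0.23, 0.09 and 0.19 on the log2 scale, and by -0.32 and -0.24 in 2D-2D and 3D-2D against sorted cells.

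The interaction asked whether the effect of the second substrate depended on the first, as the 3D-3D minus 3D-2D difference less the 2D-3D minus 2D-2D difference, and it was called for 3 of 5 members, 2 positive and 1 negative, where 19.4% of genes were called (10.3% positive and 9.1% negative). For Wisp2 it was -2.95 ± 0.38 (adjusted p = 1.02e-05): gel against plastic was -2.62 after a 2D start, and after a 3D start plastic stood 5.57 above gel. For Cyr61 it had the opposite sign, 0.60 ± 0.16 (adjusted p = 0.0111), the fall in gel being smaller after a 3D start. For Ctgf it was 0.46 ± 0.16 at adjusted p = 0.0463, close to the threshold. That call was lost by library size alone (adjusted p = 0.0676), with limma-voom (adjusted p = 0.0519), with the replicate number as a block (adjusted p = 0.06) and in 13 of 16 fits that left out 1 library. Among those fits it held only without replicate 1 of 2D-3D, replicate 3 of 3D-3D or replicate 4 of 3D-3D. Wisp1 (0.28 ± 0.19, adjusted p = 0.366) and Nov (-0.33 ± 0.34, adjusted p = 0.568) were not called.

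Without replicate 3 of 3D-3D, the library that stood apart, every member result that uses 3D-3D kept its direction and its side of the threshold. For 3D-3D against 2D-2D the changes were then -2.93 ± 0.13 for Ctgf, -2.51 ± 0.11 for Cyr61, -0.36 ± 0.12 for Wisp1, -7.0 ± 0.31 for Wisp2 and 0.42 ± 0.26 for Nov. The interaction became 0.5 ± 0.16 for Ctgf, 0.71 ± 0.14 for Cyr61 and -2.69 ± 0.37 for Wisp2.

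**Figure D3:**
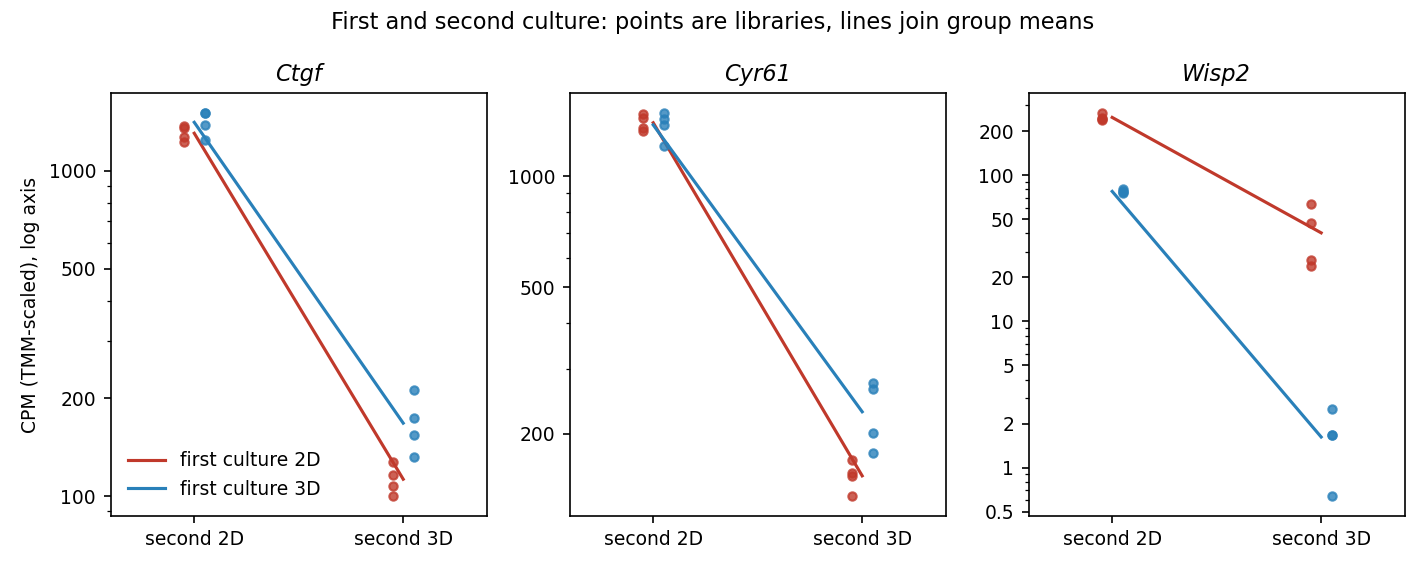
Levels (CPM, log axis) of Ctgf, Cyr61 and Wisp2 by second substrate, with red for a 2D start and blue for a 3D start; points are libraries and lines join group means. The lines nearly meet on second 2D for Ctgf and Cyr61, and spread apart for Wisp2, from 248.0 against 77.4 CPM on plastic to 40.3 against 1.62 CPM in gel.

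Against sorted cells the members differed in direction. The cultures began from digest not passed over beads, so effects of culture and of bead depletion cannot be told apart here. Wisp1 was higher in all cultures, by 4.90 ± 0.17 in 2D-2D (29.8-fold, adjusted p = 1.93e-18), 5.06 ± 0.17 in 2D-3D, 3.98 ± 0.17 in 3D-2D and 4.42 ± 0.17 in 3D-3D. Cyr61 was lower in all cultures, from -1.19 ± 0.11 in 2D-2D (adjusted p = 2.25e-10) to -4.38 ± 0.12 in 2D-3D (20.8-fold, adjusted p = 5.06e-20). Ctgf was higher on plastic (1.66 ± 0.11 in 2D-2D, adjusted p = 3.88e-13, and 1.77 ± 0.11 in 3D-2D, adjusted p = 1.23e-13) and lower in gel (-1.87 ± 0.11 in 2D-3D, adjusted p = 9.49e-14, and -1.30 ± 0.11 in 3D-3D, adjusted p = 7.6e-11).

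Wisp2 was higher than in sorted cells in 2D-2D alone (1.32 ± 0.20, adjusted p = 1.46e-06) and lowest in 3D-3D (-5.93 ± 0.28, adjusted p = 2.09e-15). In 3D-2D it was -0.36 ± 0.20 and not called (95% interval -0.77 to 0.04, adjusted p = 0.0909), although the libraries did not overlap. With only these 2 groups in the fit it was -0.32 ± 0.06 and called (adjusted p = 8.6e-05). Nov was lower in each culture, from -1.21 ± 0.19 in 2D-3D (adjusted p = 4.29e-06) to -2.18 ± 0.21 in 3D-2D (adjusted p = 8.13e-10). Against sorted cells 3 members were higher and 2 lower in 2D-2D, beside 84.6% of the 14715 genes tested (38.5% higher and 46.1% lower). In 3D-2D 2 were higher and 2 lower, beside 83.9% (38.1% and 45.8%). In 2D-3D 1 was higher and 4 lower, beside 78.1% (38.2% and 39.9%), and in 3D-3D 1 was higher and 4 lower, beside 77.8% (38.5% and 39.3%). Immediate early genes, which respond within minutes to stress and growth factors, were high in the same sorted libraries; they were chosen after the values were seen. Fos stood at 3833.1 ± 107.4 CPM in sorted cells and at group means of 33.5 to 186.2 CPM in culture, Egr1 at 5482.4 ± 711.5 against 309.5 to 580.1 CPM and Atf3 at 810.6 ± 46.2 against 9.06 to 27.9 CPM. Their part in the level of Cyr61 was not tested.

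In order of level, Ctgf ran 3D-2D, 2D-2D, sorted, 3D-3D, 2D-3D, and only its first pair of neighbours was not called. Cyr61 ran sorted, 2D-2D, 3D-2D, 3D-3D, 2D-3D, with the plastic pair not called. Wisp1 ran 2D-3D, 2D-2D, 3D-3D, 3D-2D, sorted, with the leading pair not called. Wisp2 ran 2D-2D, sorted, 3D-2D, 2D-3D, 3D-3D, with sorted and 3D-2D not called, and for Nov, which ran sorted, 2D-3D, 3D-3D, 2D-2D, 3D-2D, only the step from sorted cells to 2D-3D was called.

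Per length of exon sequence the family was made mostly of Cyr61 and Ctgf. The 5 genes summed to 1302.4 ± 46.0 CPM per kb in 2D-2D, 1229.7 ± 101.8 in 3D-2D, 164.9 ± 11.1 in 2D-3D, 191.5 ± 34.6 in 3D-3D and 1780.9 ± 64.7 in sorted cells. Cyr61 made up 88.8 ± 0.281% of that sum in sorted cells and between 46.1 ± 2.63% (2D-3D) and 59.1 ± 2.43% (3D-3D) in culture. Wisp1 made up 1.86 ± 0.239% in 2D-2D and 16.6 ± 3.55% in 2D-3D, where its own level was not called different and the sum was lower. Wisp2 made up 9.92 ± 0.85% in 2D-2D and 0.427 ± 0.163% in 3D-3D, and no test was made on shares. The sixth gene of the family, Wisp3, which is no member here, had 0 counts in all 16 cultured libraries, which allows up to 0.00937 CPM (3 counts over their total, counting error only), and 5 counts in all in 3 of 4 sorted libraries.

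**Figure D4:**
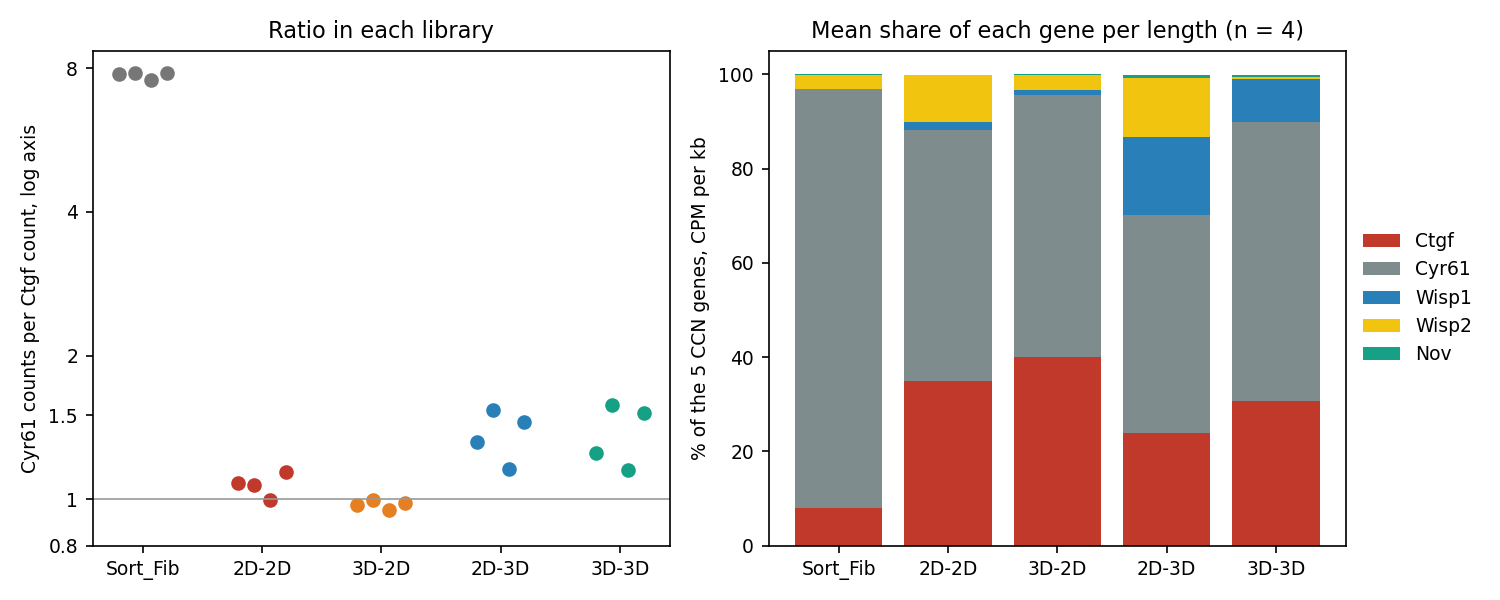
Left, Cyr61 counts per Ctgf count in each library (log axis); right, mean share of each member in the family's summed CPM per kb of exon (n = 4). The ratio is 7.55 to 7.83 in sorted cells and at most 1.58 in culture, and Wisp1 takes 16.6% of the family in 2D-3D.

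Of 13 transcription regulators of CCN genes, 10 fell and 2 rose in 3D-3D against 2D-2D, where 34.9% of all genes fell and 38.6% rose. Their median was -0.69 beside 0.05 over all genes. Mkl1, a partner of serum response factor that senses free actin (-2.36 ± 0.10), and Tead1 (-2.33 ± 0.15) and Tead3 (-1.68 ± 0.08), DNA-binding partners of YAP, fell. In 3D-2D against 3D-3D 10 rose and 2 fell (all genes 32.8% and 37.7%; median 0.56, all genes -0.07), with Srf, the serum response factor, at 1.52 ± 0.08. On plastic, 4 were lower after a 3D start and none higher (all genes 10.6% and 9.74%), Tead3 at -0.62 ± 0.08.

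Of 20 other targets of YAP and TAZ, 14 fell and 4 rose in 3D-3D against 2D-2D (median -1.08), beside 34.9% and 38.6% of all genes and a median of 0.05. Amotl2 (-4.21 ± 0.22), which binds and restrains YAP, Ankrd1, a nuclear ankyrin repeat protein (-3.97 ± 0.19), and Crim1, a transmembrane antagonist of bone morphogenetic proteins (-3.36 ± 0.11), fell most among those that reached 10 CPM. In 2D-3D against 2D-2D 14 fell and 4 rose (all genes 34.7% and 36.5%). The interaction was called positive for 5 and negative for none (all genes 10.3% and 9.1%), Igfbp3 at 2.08 ± 0.30 and Ankrd1 at 1.26 ± 0.28. A positive sign did not mean the same for each gene. Ankrd1 fell less in gel after a 3D start. Igfbp3 was higher in gel, by 0.98 ± 0.21 in 2D-3D against 2D-2D, and 3D-2D against 3D-3D was -3.06 ± 0.22.

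Of 13 receptors and co-receptors of CCN proteins 7 rose and 6 fell in 3D-3D against 2D-2D (median 0.42). Calls in both directions were also what all genes showed there, with 38.6% higher and 34.9% lower, and the next counts are read against the same shares. Itga5, the fibronectin receptor subunit, fell (-2.08 ± 0.10), and Itgb3 (1.79 ± 0.15) and Itga6 (1.5 ± 0.16), integrin subunits through which Ctgf and Cyr61 act, rose. Among 9 matrix and growth factor partners 4 rose and 5 fell: Dcn, the proteoglycan decorin, rose by 4.21 ± 0.12 and Bmp2 by 2.51 ± 0.14, while Hspg2, the heparan sulphate proteoglycan perlecan, fell (-2.65 ± 0.17). Of 10 proteases that cut CCN proteins or activate plasminogen 8 were tested, and 5 rose and 1 fell, with the gelatinases Mmp2 (2.85 ± 0.11) and Mmp9 (1.75 ± 0.12) higher. In 2D-3D against 3D-3D, 6 of 9 partners were lower and none higher (all genes 15% and 12.7%), Dcn at -1.35 ± 0.10.

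Of 10 Wnt response genes 5 rose and 3 fell in 3D-3D against 2D-2D (all genes 38.6% and 34.9%; median 0.81). The transcription factor Tcf7 (1.55 ± 0.18) rose, and Nkd2, an inhibitor of Dishevelled (-2.83 ± 0.16), and Apcdd1 (-1.1 ± 0.2) fell. Notum, a Wnt deacylase (6.29 ± 0.41), and Axin2, a feedback inhibitor of Wnt signalling (3.46 ± 0.33), also rose. Notum and Axin2 were chosen here after their values were seen, and neither reached a mean of 10 CPM in these groups. Against sorted cells, where Wisp1 was higher in every culture, 9 of 10 were lower in 2D-2D and 1 higher (all genes 46.1% and 38.5%), with Axin2 at -6.44 ± 0.24 and Notum at -7.01 ± 0.34. Of 8 targets and receptors of TGF-beta, 5 rose and 2 fell in 3D-3D against 2D-2D (all genes 38.6% and 34.9%; median 0.86). Tgfbi, a matrix protein, rose (3.15 ± 0.09), as did Skil, a repressor of SMAD signalling (1.57 ± 0.12). The genes of these lists were chosen with earlier results of these data known, and their counts describe the lists only.

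By the size of the difference between log2 levels centred on each gene's mean over the 20 libraries, the gene nearest to Cyr61 among 14714 was Thbd, thrombomodulin, an anticoagulant receptor (root mean square difference 0.18). Thbd stood at 632.4 ± 20.5 CPM in sorted cells, 253.8 ± 18.7 in 2D-2D, 287.7 ± 16.4 in 3D-2D, 32.8 ± 2.46 in 2D-3D and 38.7 ± 5.54 in 3D-3D. The matrix genes Prelp (0.41) and Fbln5 (0.44) came next. For Ctgf the nearest were Dscam (0.33), whose group means were at most 1.05 CPM, and Crim1 (0.35), and Cyr61 ranked only 772nd at 1.11. Wisp1 was nearest to Ogdhl (0.37), Inhba, the activin A subunit (0.42), and Timp1, a protease inhibitor (0.42), and Nov to Itpr2, Akap8l and Tmem154 (0.24 each). No gene came close to Wisp2: Zim1 and Vegfd lay at 1.16 and Fam198b at 1.19. Vegfd, a lymphatic growth factor, ran from 109.3 ± 14.9 CPM in 2D-2D to 6.44 ± 0.972 in 3D-3D. These are descriptions with no test. The 20 libraries fall into 5 groups, so these distances mostly compare 5 group levels.

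Markers of cell types differed between the same groups. The fibroblast receptor Pdgfra was present in every group, at 178.6 ± 18.0 CPM in 2D-2D, 177.6 ± 8.88 in 3D-2D, 337.2 ± 53.5 in 2D-3D, 395.7 ± 45.8 in 3D-3D and 514.1 ± 21.8 in sorted cells. The 6 fibroblast markers summed to 12844.2 to 16143.4 CPM in 2D-2D and to 5478.0 to 9582.6 CPM over the other groups, with none at 0. They did not move together: in 3D-3D against 2D-2D 3 were called higher and 3 lower (all genes 38.6% and 34.9%). Dcn was at 4.21 ± 0.12 and Col1a1 at -2.06 ± 0.12 there. The 6 smooth muscle markers, which myofibroblasts also use, summed to 18390.2 to 20840.1 CPM in 2D-2D, 14272.5 to 15766.9 in 3D-2D, 883.2 to 1456.6 in 2D-3D, 713.5 to 1356.4 in 3D-3D and 297.1 to 318.6 in sorted cells. Among the cultures both these sums and Ctgf were higher on plastic than in gel, whereas sorted cells had the lowest sums and more Ctgf than gel. Acta2, the smooth muscle actin among them, changed by -4.71 ± 0.20 in 3D-3D against 2D-2D and did not pass the test of interaction (0.04 ± 0.25, adjusted p = 0.936).

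Of other cells, macrophage markers were present everywhere, at 4402.6 to 4810.0 CPM in sorted cells, 5210.2 to 7258.2 in 2D-2D, 12809.7 to 16539.4 in 2D-3D, 8728.9 to 9673.9 in 3D-2D and 7584.7 to 10114.0 in 3D-3D. The 6 endothelial and 6 epithelial markers, targets of the bead depletion, still summed to 1702.1 to 1822.6 and 1627.9 to 1970.7 CPM in sorted cells, with none at 0, against at most 62.4 and 246.1 CPM in culture. Lymphocyte and neutrophil markers summed to 485.4 to 541.2 and 597.7 to 648.1 CPM there, although beads against CD45 had been used. Among the cultures, 3D-3D, where Wisp2 was lowest, had the highest sums of endothelial (44.4 to 62.4 CPM), epithelial (125.4 to 246.1), lymphocyte (33 to 55.7), pericyte (203.6 to 255.7) and mesothelial markers (97.7 to 308.8). In 2D-2D these sums were at most 8.88, 11.6, 0.347, 27.8 and 55.7 CPM, with 4 of 6 lymphocyte markers, Cd3e, Cd3d and Ms4a1 among them, and the pericyte marker Higd1b at 0. In 2D-3D they were at most 21.0, 21.6, 0.513, 82.3 and 15.2 CPM. In 3D-2D, which shares the 3D start, they were at most 10.7, 95.1, 3.15, 37.0 and 73.6 CPM. Epithelial, lymphocyte and mesothelial maxima there thus exceeded those of both groups with a 2D start. The mesothelial markers were split in 3D-3D against 2D-2D, with 3 called higher and 2 lower (all genes 38.6% and 34.9%). Msln was higher there (5.05 ± 0.30). Upk3b against sorted cells was lowest in 3D-3D (-5.11 ± 0.19), beside -2.52 ± 0.16 in 2D-2D. Adventitial fibroblast markers summed to 2704.1 to 3169.1 CPM in 3D-3D against 684.6 to 700.5 in 3D-2D, and alveolar fibroblast markers to at most 325.3 CPM in culture against at least 6512.3 in sorted cells. Neutrophil, chondrocyte, and mast cell and basophil markers summed to at most 79.2, 74.1 and 77.5 CPM in the cultures. The part of these cells in the levels of the CCN genes was not tested.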

How the data were processed

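RNA was sequenced from 20 libraries in 5 groups of 4, grouped by the titles in their labels. HISAT and Bowtie2 and the build GRCm38.p6 are named, without versions, in the submitters' processing notes. The counting program is not given in the sources used here. Expected counts per gene were deposited by the authors, of which 5.98% were not whole (tolerance 1e-06); they were rounded for the tests. Of 67228 genes 18012 carried values, and 5 columns of group averages were not used.

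Tests used edgeR 4.0.16 in R 4.3.3 (filterByExpr, TMM, quasi-likelihood F tests, Benjamini-Hochberg adjustment over all genes tested, calls below 0.05). Contrasts between cultures used the 16 cultured libraries (13704 genes, biological variation 0.122 as a coefficient), and those against sorted cells used all 20 (14715 genes, 0.112). The SE is the log2 change divided by the square root of F. Levels of CPM use the 20-library scaling. The scripts were tested on simulated data.

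The members and gene lists were chosen with earlier results of these data known. Named were all members, at most 3 called genes per list with the largest change and at least 10 CPM in a group, the 3 genes nearest in pattern to each member, Acta2 and Pdgfra. Wisp3 was named as the sixth family gene, and markers by their fixed lists where they were at 0. Outside the rule, Fos, Egr1 and Atf3 were chosen after their values were seen, as were Axin2 and Notum in 3D-3D against 2D-2D. Some results under this rule are not reported here. Alternatives were library size scaling, other normalizations and filters, DESeq2 1.42.0, limma-voom (limma 3.58.1), a replicate block, other sets of libraries and each library left out.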

Additional observations from a re-analysis of the deposited data

Results flagged for a closer look

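The effect of the second substrate differed by the first for Wisp2 (interaction -2.95, adjusted p = 1.02e-05), Cyr61 (0.6, adjusted p = 0.0111) and Ctgf (0.46, adjusted p = 0.0463) in edgeR's quasi-likelihood test, with 4 libraries in each of the 4 cultures. Of all genes, 19.4% were called in the same test. The Ctgf call was lost in 13 of 16 fits that left out 1 library. The lowest Acta2 level in sorted cells, 90.6 CPM, stood apart from the next at 100.9 CPM, a gap of 0.85 of the group's range. It was the only such library among 40 groups of values examined, of which chance sets apart about 1 in 20.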

How the results depend on the processing

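Of 920 alternative values for the 55 member results, 893 kept their direction and their side of the threshold. All 184 alternative counts of members called were within 1.5 times the reported count, as were the 184 counts of all genes called. The Ctgf interaction was lost at 0.41 by library size alone, 0.45 with limma-voom and 0.45 with the replicate block (adjusted p = 0.0676, 0.0519 and 0.06), and ran from 0.33 to 0.56 with 1 library left out (adjusted p = 0.0101 to 0.12). By library size alone Cyr61 in 3D-2D against 2D-2D changed sign to 0.06, Wisp1 in 3D-3D against 2D-2D was lost at -0.16, and calls appeared for Wisp1 in 2D-3D against 2D-2D (0.44), Nov in 3D-3D against 2D-2D (0.68), Nov in 3D-2D against 3D-3D (-0.73) and Wisp2 in 3D-2D against sorted cells (-0.61). The last was also called with only those groups in the fit (-0.32), and Nov in 3D-2D against 3D-3D with all 20 libraries (-0.5). With 1 library left out, Cyr61 in 3D-2D against 2D-2D ran from -0.07 to 0.06 and changed sign without replicate 1 of 3D-2D. Nov in 2D-3D against 3D-3D ran from 0.35 to 0.66, called without replicate 1 of 3D-3D (0.66, adjusted p = 0.048), and in 3D-2D against 3D-3D from -0.6 to -0.31, called without replicate 2 of 3D-3D (-0.58, adjusted p = 0.0498). Apart from the library size scaling, whose shift of the median is given above, the cause was not tested. Deviations of same-numbered replicates from their group means correlated at -0.082 to 0.119 over 40 pairs, against -0.127 to 0.122 over 120 pairs of unlike number. These correlations cannot show whether same-numbered libraries share an animal, which the labels do not state. The replicate block changed no member's call apart from the Ctgf interaction. Nov and, in 3D-3D, Wisp2 rest on few counts, which limits their precision.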
